A study of Mus musculus with 4 samples.

Results

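Costimulatory molecules are surface proteins by which an activated macrophage or dendritic cell gives a T cell the second signal it needs beside antigen. Tnfsf9, Cd83, Cd40 and Cd86 were followed here through every row of the 2 deposited site tables that names one of these genes, which was 43 of 45668 called sites in mouse 1 and 42 of 47747 in mouse 2. All 42 coincided in nucleotide and strand with a site of mouse 1, and a single Cd86 site was listed for mouse 1 alone. Of all called sites, 83.4% in mouse 1 and 79.8% in mouse 2 were called in the other animal too. N6-methyladenosine (m6A), adenosine of RNA that carries a methyl group, had been mapped by m6A-eCLIP, which sequences RNA fragments crosslinked to an antibody against m6A and places a site from the positions where reads start. For each of 2 wild-type mice, bone marrow-derived macrophages (BMDM) exposed for 3 h to lipopolysaccharide (LPS) yielded 1 library of immunoprecipitated fragments (IP) and 1 library of the input, both from polyadenylated RNA.

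All 4 libraries came from LPS-treated cells, so resting cells were not part of the comparison, and the term NTC in the tables' names is not explained by the labels. Each mouse is represented by 1 culture of bulk cells. The values are read starts in the IP over those in the input, which do not measure the amount of a transcript. Modified copies in only some of the cells and a smaller modified share in all of them cannot be told apart. Of 10 macrophage markers, all had called sites in both mice. Called sites were absent for 6 of 10 dendritic cell markers, 7 of 8 B cell markers and 7 of 8 T cell markers, although a gene without a site may still be transcribed.

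LPS acts through Toll-like receptor 4 and raises the surface amount of these proteins on macrophages. Cd86 (B7-2) binds CD28 and CTLA-4 on T cells, and Tnfsf9 (4-1BB ligand) binds the receptor 4-1BB, encoded by Tnfrsf9. Cd40 is a receptor of the TNF receptor superfamily that responds to CD40 ligand on helper T cells and signals through TRAF adaptors. Cd83 is an immunoglobulin-like membrane protein of activated antigen-presenting cells, known in mice to slow the ubiquitin-dependent loss of MHC class II and Cd86 from the surface. In messenger RNA, m6A is laid down by the METTL3-METTL14 writer complex, collects in long exons and 3' UTRs near stop codons, and is read by YTH-domain proteins, of which the YTHDF proteins are known to speed decay.

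The first question was whether the 4 transcripts carried sites enriched by the antibody. Enriched sites were those where the fold given by the authors, read starts in the IP over those in the input within each animal, was at least 8. In mouse 1, 42 of the 43 listed sites were enriched, beside 81.7% of all called sites. In mouse 2 it was 40 of 42, beside 79.1%. Of the 42 sites called in both animals, 40 were enriched in both, beside 76.9% over the whole tables, and all 4 genes carried such shared enriched sites, as did 86.9% of the 7827 genes called in both mice. With 1 IP and 1 input library per animal no test was made, and sites of 1 transcript are not replicates, so the counts are descriptions. Cd86 had 13 shared enriched sites, Cd83 had 12, Tnfsf9 had 10 and Cd40 had 5, against a median of 2 per gene. Fewer sites than these were found in 95.5% of genes for Cd86, 94.4% for Cd83, 92.0% for Tnfsf9 and 74.3% for Cd40. These counts were not adjusted for the length or the amount of a transcript, so they do not measure how densely it is methylated.

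**Figure D1:**
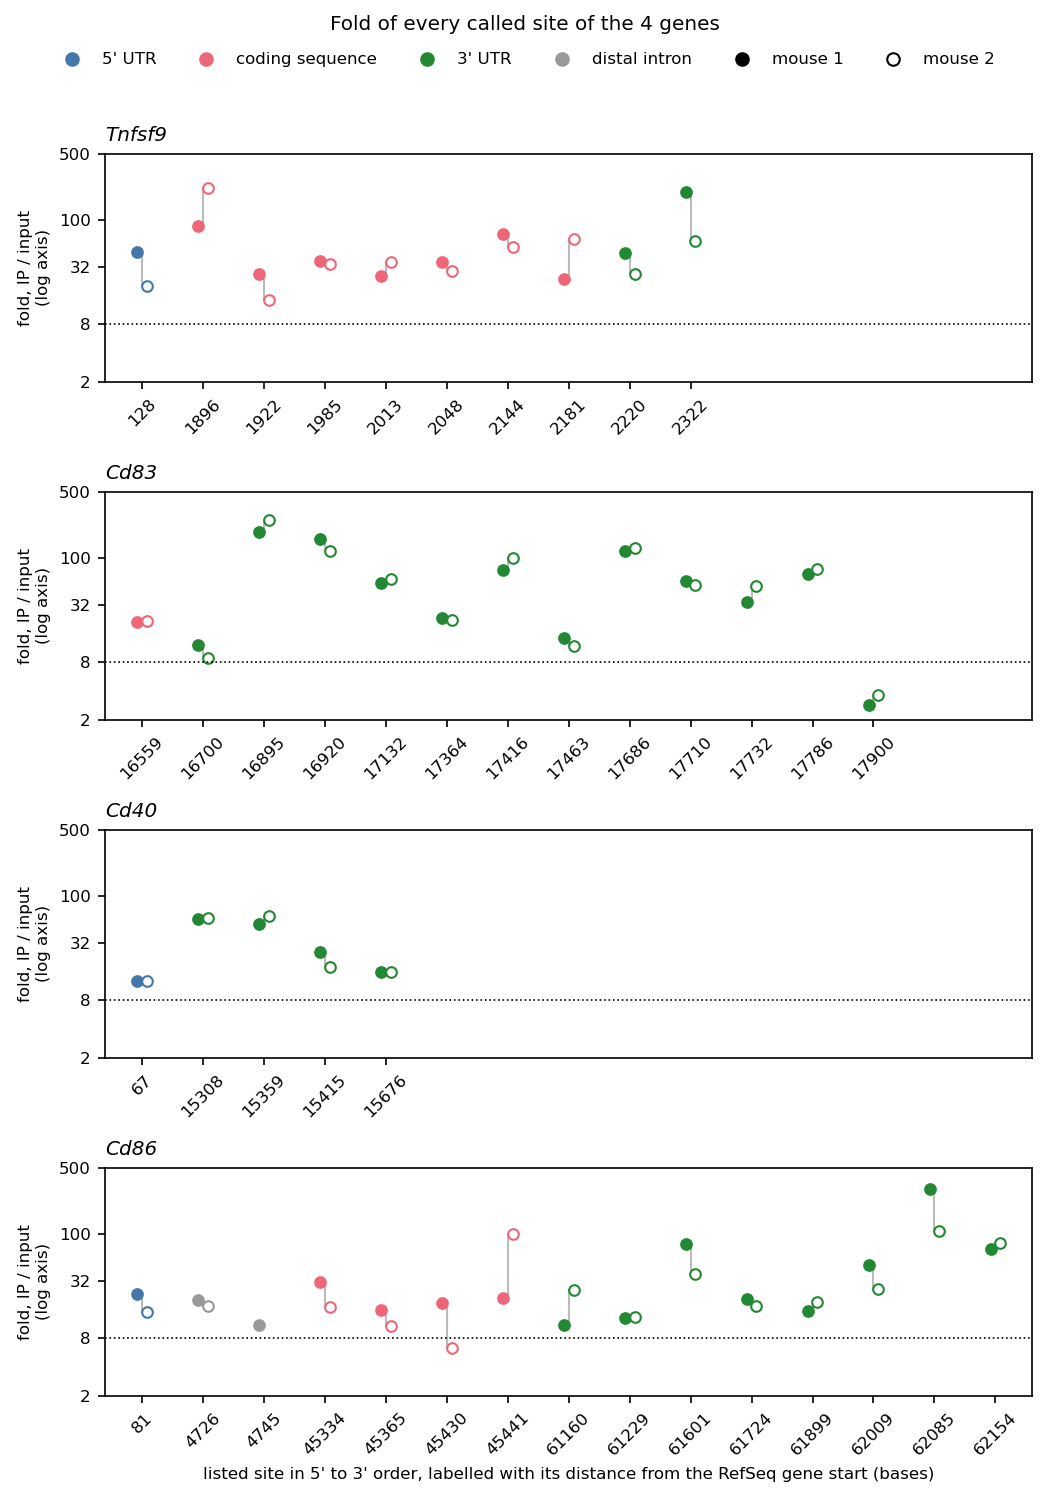
Fold of read starts (IP over input, log axis) of every called site of the 4 genes in 5' to 3' order, with the distance from the RefSeq gene start in bases below each site. Filled points are mouse 1, open points mouse 2, colours give the annotated position, and the dotted line is the limit of 8. The points of both mice lie close together in Cd83 and Cd40 and further apart in Tnfsf9 and Cd86.

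Where the sites lay differed between the genes. Of the 40 shared enriched sites, 25 (62.5%) were in 3' UTRs, 11 (27.5%) in coding sequence, 3 (7.5%) in 5' UTRs and 1 in a distal intron. Over all 29288 shared enriched sites the 3' UTR held 37.3%, coding sequence 42.4% and the 5' UTR 13.6%. Cd83 was almost wholly a 3' UTR pattern, with 11 of 12 sites there. At least 11 shared enriched 3' UTR sites were found in 81 of 7827 genes (1.03%). Among the family lists below, Icosl had 18, Tnfrsf1b had 12, and Vsir and Tnfsf4 had 11 each. Cd40 had 4 of its 5 sites in the 3' UTR and none in coding sequence. Tnfsf9 was the reverse, with 7 coding sites among its 10 and only 2 in the 3' UTR. Cd86 had sites in 4 kinds of position, with 8 in the 3' UTR, 3 coding, 1 in the 5' UTR and 1 intronic. Tnfsf9 and Cd86 were thus among the 521 genes (6.66%) with shared enriched sites in the 5' UTR, coding sequence and 3' UTR together.

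The 4-1BB ligand gene Tnfsf9 (ENSMUSG00000035678.8) occupies chromosome 17, 57105287 to 57107758, plus strand, in the mm10 assembly. All 10 of its listed sites were enriched in both mice, and 9 of them lay between 575 and 149 bases from the annotated end of the gene. The site with the highest mean log2 fold was in coding sequence at 57107183, where mouse 1 had a fold of 85.9 and mouse 2 one of 219. In mouse 1 alone the leading site was another, in the 3' UTR at 57107609, with folds of 199 in mouse 1 and 60.02 in mouse 2. The choice of a strongest Tnfsf9 site therefore depended on the animal. The next site, in coding sequence at 57107431, had folds of 70.7 in mouse 1 and 52.0 in mouse 2. The lowest by mean log2 fold, also in coding sequence at 57107209, had 27.1 in mouse 1 and 14.4 in mouse 2, still above the limit. Between them the 7 coding sites formed a run with gaps of 26 to 96 bases up to 57107468. The first 3' UTR site followed 39 bases further on, at 57107507 (44.6 in mouse 1 and 27.0 in mouse 2).

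Cd83 (ENSMUSG00000015396.4; chromosome 13, 43785112 to 43803133, plus strand) had the highest leading site of the 4 by mean log2 fold, which ranked 49th among the strongest sites of the 6798 genes with a shared enriched site. That 3' UTR site at 43802007 had folds of 189.9 in mouse 1 and 251 in mouse 2. A second 3' UTR site 25 bases downstream, at 43802032, had 157 in mouse 1 and 119.7 in mouse 2. Both neighbours stood far above the gene's median fold, 55.4 in mouse 1 and 56.1 in mouse 2. Another group of 3' UTR sites began at 43802798, where the folds were 118 in mouse 1 and 127 in mouse 2, and went on at 43802822 (56.8 in mouse 1 and 51.9 in mouse 2) and 43802844 (34.5 in mouse 1 and 51.03 in mouse 2). The lowest enriched site in both animals, at 43801812 near the start of the 3' UTR, lay just inside the limit with 12.2 in mouse 1 and 8.99 in mouse 2. The only listed Cd83 site outside the limit was the last one, 121 bases from the gene's end at 43803012, with 2.857 in mouse 1 and 3.597 in mouse 2. The 11 enriched 3' UTR sites spanned 1087 bases, with gaps of 22 to 232 bases.

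The authors' score, whose definition is not given in the sources used here, ordered the Cd83 sites differently from the fold. The highest scores were at 43802822, with 122 in mouse 1 and 131 in mouse 2, although its fold was less than those of 5 other Cd83 sites in mouse 1. The site with the highest fold, at 43802007, scored 119 in mouse 1 and 124 in mouse 2. Median scores were highest in Cd83 (94.8 in mouse 1 and 100.3 in mouse 2), followed by Tnfsf9 (85.2 and 77.1), Cd40 (65.4 and 68.4) and Cd86 (41.9 and 40.8). Over all shared enriched sites the medians were 43.6 in mouse 1 and 46.1 in mouse 2, so that Cd86, the gene with the most sites of the 4, had scores slightly under those of the tables as a whole.

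Cd40 (ENSMUSG00000017652.16; chromosome 2, 165055614 to 165071654, plus strand) had the fewest sites and, by mean log2 fold, the lowest leading site. Its 3' UTR site at 165070922 had folds of 56.8 in mouse 1 and 58.5 in mouse 2. Its neighbour 51 bases downstream at 165070973 had 51.4 in mouse 1 and 61.6 in mouse 2, so the first and the second site changed places between the animals. The third, at 165071029, had 25.6 in mouse 1 and 17.9 in mouse 2. Folds then declined along the 3' UTR to 15.9 in mouse 1 and 15.95 in mouse 2 at 165071290. The lowest in both was the 5' UTR site at 165055681, with 12.8 in mouse 1 and 12.7 in mouse 2. By its strongest site Cd40 stood at the 80.1st percentile of genes with a shared enriched site, against 99.3 for Cd83, 98.6 for Cd86 and 96.8 for Tnfsf9.

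Cd86 (ENSMUSG00000022901.13; chromosome 16, 36568956 to 36666158, minus strand) held the highest single fold of the 4 genes. The 3' UTR site at 36604073 reached 299 in mouse 1 and 108 in mouse 2, and it was the leading site of the gene in both. It was followed by 3' UTR sites at 36604004 (69.7 in mouse 1 and 79.9 in mouse 2) and 36604557 (78.2 in mouse 1 and 37.7 in mouse 2). The median fold of the gene's 13 shared enriched sites, these included, was 21.1 in mouse 1 and 19.3 in mouse 2, beside medians of 21.5 and 22.1 over the tables. The 8 sites of the 3' UTR spanned 995 bases. The lowest shared site by mean log2 fold was in coding sequence at 36620793, with 16.05 in mouse 1 and 10.9 in mouse 2.

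A group of 4 listed coding sites between 36620824 and 36620717 included the pair of Cd86 sites at which the animals differed most. At 36620717 the fold was 21.1 in mouse 1 and 99.2 in mouse 2. At 36620728, 11 bases away, it was 19.1 in mouse 1 and 6.36 in mouse 2, so this site was enriched in mouse 1 only. The difference thus ran in opposite directions at neighbouring sites. In the intron, 4726 bases from the gene's start, the site at 36661432 had folds of 20.06 in mouse 1 and 17.3 in mouse 2. A second intronic site 19 bases downstream, at 36661413, was listed for mouse 1 alone with a fold of 11.03 and the lowest score of the 43 sites of that mouse (14.2).

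Cd40, Cd86 and Tnfsf9 each had a single 5' UTR site enriched in both mice, at 67, 81 and 128 bases from the RefSeq gene start. Cd83 had none. Over all 3717 shared enriched 5' UTR sites that lay in their RefSeq gene, the median distance was 82 bases. Of genes called in both mice, 33.3% had a shared enriched 5' UTR site, whether or not it lay in the RefSeq gene. The folds were 45.6 in mouse 1 and 20.4 in mouse 2 for Tnfsf9 at 57105415, 23.2 in mouse 1 and 15.3 in mouse 2 for Cd86 at 36666077, and the values above for Cd40. Over all shared enriched 5' UTR sites the medians were 17.05 in mouse 1 and 17.3 in mouse 2, so the Tnfsf9 site lay above them in both animals and the Cd40 site below them. Each of the 3 sites lay below the leading 3' UTR site of its gene in both animals. No sequence was used, so whether these sites near the gene start are m6A or another modification bound by the antibody was not tested.

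**Figure D2:**
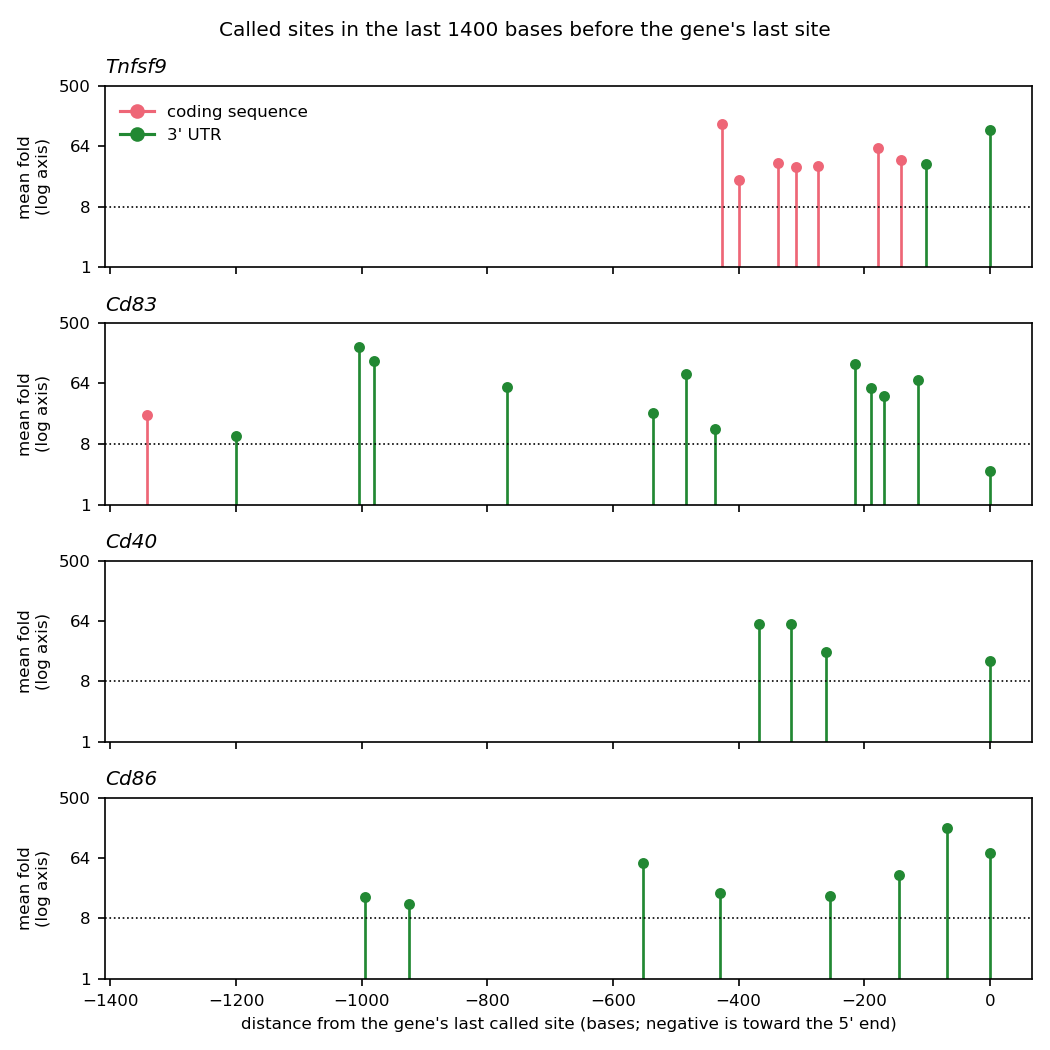
Mean fold over both mice (the mean taken on the log2 scale, drawn on a log axis) of sites called in both mice. Sites are placed by distance in bases from the gene's last called site, in a window that ends there. In Cd86 that last site lies 35048 bases from the RefSeq gene end. Red lines are coding sites and green lines 3' UTR sites, and the dotted line is the limit of 8. Cd83 sites spread over the whole window, while Tnfsf9 sites crowd into a short stretch.

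Spacing between sites differed among the 4 transcripts. None of the 40 shared enriched sites had another within 10 bases on its strand, whereas 12.3% of all shared enriched sites did. A neighbour within 30 bases was found for 9 of the 40 (22.5%), 5 of them in Cd83 and 4 in Tnfsf9, beside 32.9% over all sites and 37.3% in genes with at least 5 shared enriched sites. Within 50 bases a neighbour was found for 8 of 10 sites in Tnfsf9 and 7 of 12 in Cd83 but 2 of 13 in Cd86 and none of 5 in Cd40, beside 46.7% over all sites. Within 100 bases it was found for 28 of the 40, beside 63.7% over all sites. The median distance to the nearest such site was 36 bases in Tnfsf9, 47 in Cd83, 56 in Cd40 and 76 in Cd86, and 53 over the 40 sites, beside 57 over all sites.

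How well the animals agreed was then set out gene by gene. In Cd83, all 12 shared enriched sites had folds within a factor of 1.5 of each other in the 2 mice, and in Cd40 all 5 did. In Cd86 it was 6 of 13 and in Tnfsf9 4 of 10, beside 56.2% of all shared enriched sites. The median absolute difference on the log2 scale was 0.24 in Cd83, 0.04 in Cd40, 0.60 in Cd86 and 0.82 in Tnfsf9, against 0.49 over all shared enriched sites. Neither animal was higher throughout: the fold was higher in mouse 1 at 22 of the 40 sites, with a median difference (mouse 1 minus mouse 2) of 0.07. The order of sites within Cd83 was nearly the same in both mice, with a Spearman rho of 0.99 over 12 sites. In Cd86 rho was 0.57 over 13 sites and in Tnfsf9 0.25 over 10. These points share their libraries and transcripts, and the coefficients carry no p-value.

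**Figure D3:**
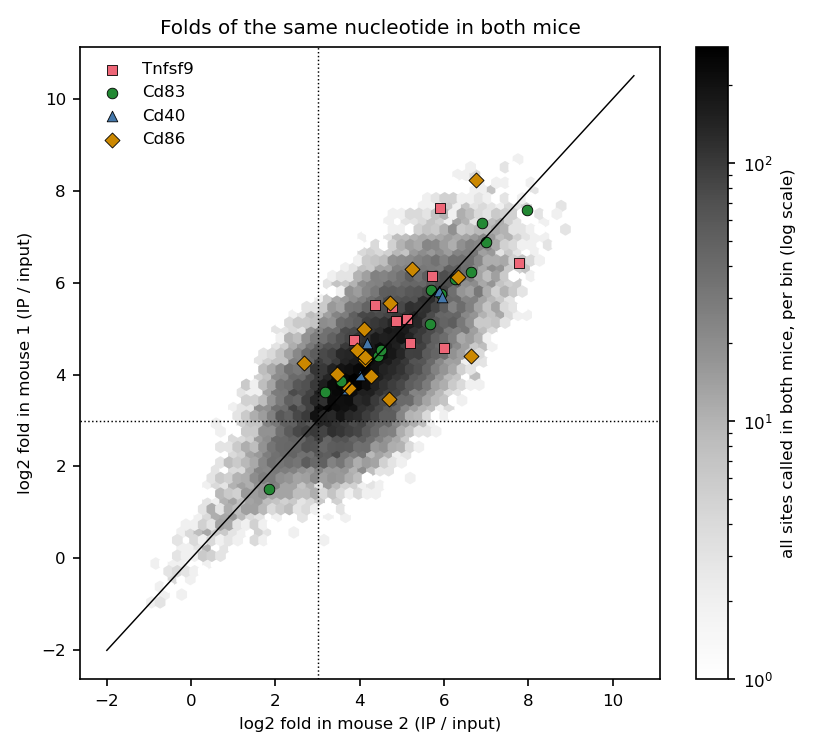
Log2 fold of the same nucleotide in mouse 1 (vertical axis) and mouse 2 (horizontal axis) for all 38082 sites called in both mice (grey bins, darker for more sites on a log scale) and for the 42 member sites (coloured symbols). The solid line marks equal folds and the dotted lines the limit of log2 fold 3. Cd83 and Cd40 lie near the line, while Tnfsf9 and Cd86 scatter to both sides of it.

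Among the 4 genes, the form of the folds also differed. Divided by a constant of its table (1.003 in mouse 1 and 0.963 in mouse 2), every member fold was a ratio of whole numbers. Read numbers were not given in the tables, and a ratio in lowest terms can hide a common factor, so these whole numbers are the smallest that give the fold and no error was computed from them. The leading Cd83 site reduced to 3787 over 20 in mouse 1 and 3914 over 15 in mouse 2. The leading Cd40 site reduced to 2207 over 39 in mouse 1 and 2490 over 41 in mouse 2. In contrast, the leading Cd86 site reduced to 298 over 1 in mouse 1 and 112 over 1 in mouse 2, and that of Tnfsf9 to 257 over 3 in mouse 1 and 227 over 1 in mouse 2. In lowest terms, the whole numbers at these leading sites were thus smaller in Cd86 and Tnfsf9 than in Cd83 and Cd40. The contrast depended on the site taken and on the reduction. The Cd40 site at 165070973, which led in mouse 2, reduced to 2102 over 41 in mouse 1 but to 64 over 1 in mouse 2.

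A denominator of 1 was found for 10 of 15 Cd86 sites in mouse 1 and 8 of 14 in mouse 2, and for 3 of 10 Tnfsf9 sites in mouse 1 and 7 of 10 in mouse 2. It was found for none of the 13 Cd83 and 5 Cd40 sites in mouse 1 and for 1 of each in mouse 2. Cd83 and Cd40 thus had few such sites or none in both mice. Cd86 was near the share over all called sites given below, while Tnfsf9 was under it in mouse 1 and over it in mouse 2. A denominator over 10 was found for 11 of 13 Cd83 sites and all 5 Cd40 sites in mouse 1, and for 10 and 4 of them in mouse 2. Over all called sites, 62.1% of folds in mouse 1 and 62.0% in mouse 2 had a denominator of 1, and 4.605% and 5.07% had one over 10. Among the 680 shared enriched sites with a denominator over 10 in both mice, the median absolute log2 difference between mice was 0.24, and among the 13 such sites of Cd83 and Cd40 it was 0.16. Among the 14404 with a denominator of 1 in both mice it was 0.39, and among the 7 such sites of Cd86 and Tnfsf9 it was 0.91. Over all shared enriched sites, which include those whose denominators differ between the mice, it was 0.49. Sites with a denominator of 1 in only 1 of the mice were not set apart. Whether the size of the whole numbers accounts for the looser agreement of Cd86 and Tnfsf9 was not tested.

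**Figure D4:**
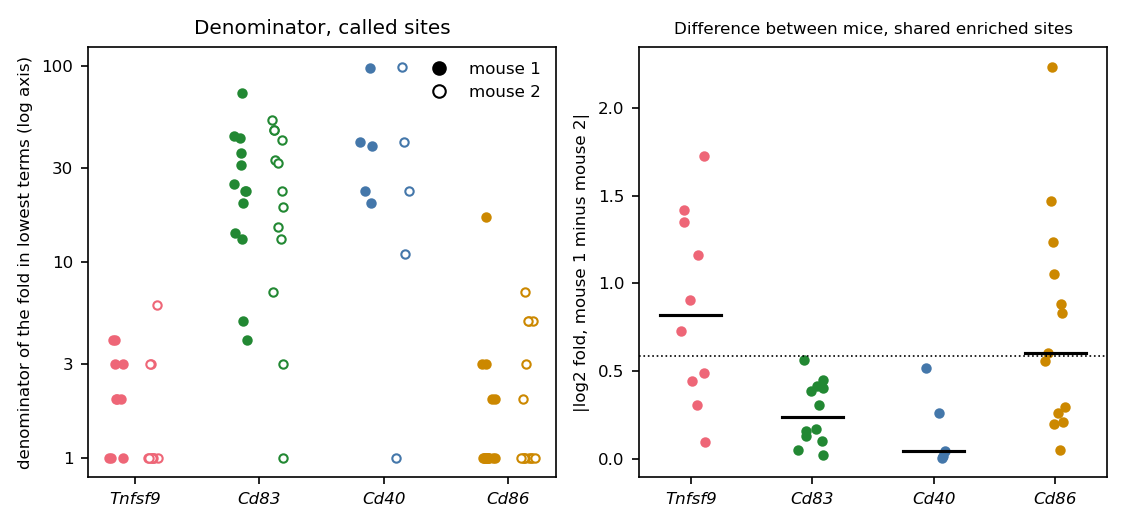
Left, denominator of each fold in lowest terms (log axis) for every called site of the 4 genes, with mouse 1 filled and mouse 2 open. Right, absolute log2 difference in fold between the mice at each shared enriched site, with the median of each gene as a bar and a factor of 1.5 as a dotted line. Cd83 and Cd40 combine high denominators with small differences, and all their 17 sites lie under the dotted line.

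The relatives of the 4 genes were described from lists by family, written with earlier results of these data known. Their counts are read beside the 86.9% of genes called in both mice that carried a shared enriched site, and their positions beside the 37.3% of such sites in 3' UTRs and 42.4% in coding sequence over all genes. Genes within a list are ordered by the mean over both mice of the log2 fold at the strongest shared site. Among genes listed as ligands of the CD28 family, not all of which have a known receptor in it, 6 of 8 had called sites in both mice. All 6 carried a shared enriched one. Vsir, which encodes the inhibitory ligand VISTA, led this list beside Cd86, with folds of 120.3 in mouse 1 and 269.6 in mouse 2 at its strongest site and 12 shared enriched sites. Cd274, which encodes PD-L1, had 9 (strongest 224 in mouse 1 and 66.2 in mouse 2). The second CD28 ligand of textbooks, Cd80, had only 2, with 23.1 in mouse 1 and 23.1 in mouse 2 at the strongest. In this list 44 of 58 shared enriched sites lay in the 3' UTR.

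Of 17 ligands of the TNF superfamily, 10 were called in both mice and 9 carried a shared enriched site. By mean log2 fold Tnfsf9 came first, although in mouse 1 its fold of 85.9 was below those of Tnfsf4, Tnf and Tnfsf10. Tnfsf4, which encodes OX40 ligand, had 14 shared enriched sites with a strongest fold of 153 in mouse 1 and 84.7 in mouse 2, and Tnfsf10, which encodes the death ligand TRAIL, had 13 with 88.2 in mouse 1 and 135 in mouse 2. Tnfsf18, the ligand of GITR, had 1 called site in each mouse and none enriched in both. With 7 coding sites of 10, Tnfsf9 held 7 of the 23 coding sites of the whole list, and 35 of the list's 64 shared enriched sites were in 3' UTRs.

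Among 26 receptors of the TNF receptor superfamily, 13 were called in both mice and 10 carried a shared enriched site. The TNF receptor gene Tnfrsf1a led (204 in mouse 1 and 223 in mouse 2, with 8 sites). The lymphotoxin receptor gene Ltbr (329 in mouse 1 and 108 in mouse 2, with 12 sites) came next. Another TNF receptor gene, Tnfrsf1b (135 in mouse 1 and 107 in mouse 2, with 15 sites), followed. Cd40 stood below these by fold. Tnfrsf14 and Tnfrsf21 had called sites and none enriched in both mice. No called site was found for the other 13 receptors.

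**Figure D5:**
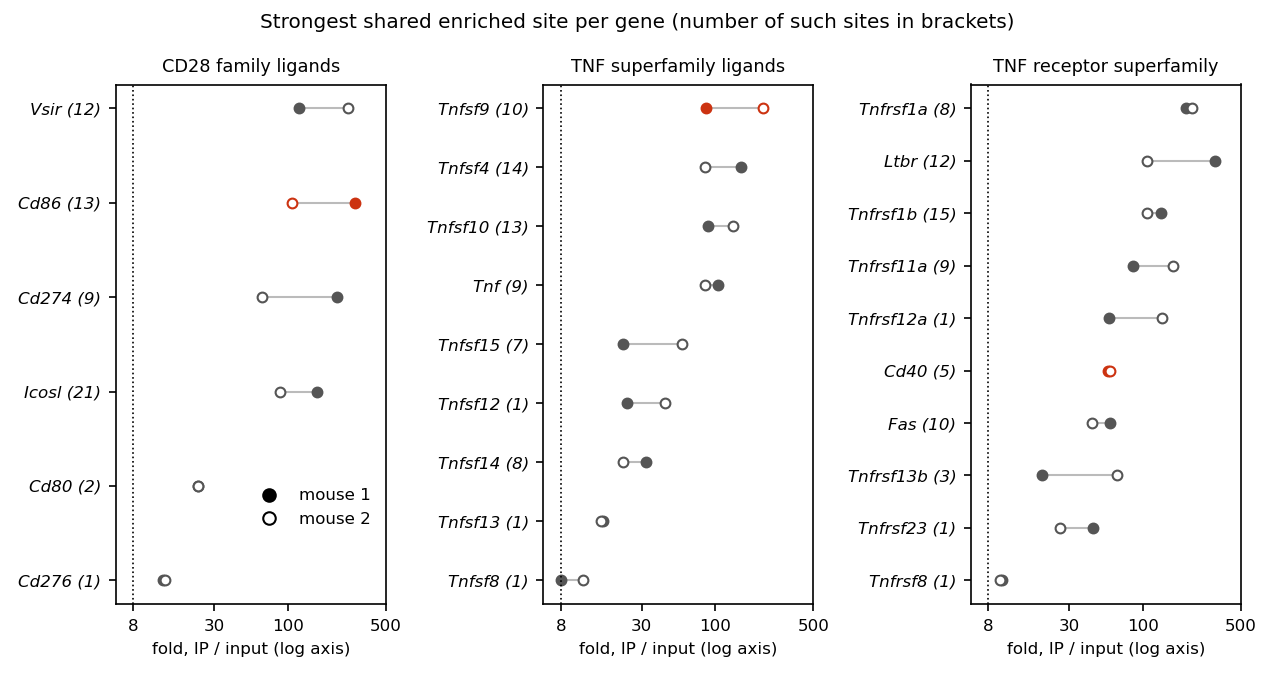
Fold (IP over input, log axis) of the strongest shared enriched site of each gene in mouse 1 (filled) and mouse 2 (open) for 3 families, ordered by mean log2 fold, with the number of shared enriched sites in brackets and the limit of 8 as a dotted line. Cd86, Tnfsf9 and Cd40 are drawn in red. By that mean Tnfsf9 is the first of the TNF ligands, while Cd40 is in the middle of its family.

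Downstream of Cd40 and 4-1BB, 10 of 11 signalling genes carried a shared enriched site (90.9%, near the 86.9% of all genes). The adaptor gene Traf1 had 16 (strongest 129 in mouse 1 and 181 in mouse 2), the ubiquitin ligase gene Birc3 had 20 (75.6 in mouse 1 and 258 in mouse 2) and Traf2 had 5 (79.2 in mouse 1 and 180.1 in mouse 2). The exception was Nfkb2, the precursor of an NF-kB subunit, with called sites and none enriched in both. Of the MHC class II presentation and turnover genes, 8 of 9 called in both mice carried a shared enriched site (88.9%, also near that share). The invariant chain gene Cd74 had the highest folds, in the 5' UTR (93.9 in mouse 1 and 106 in mouse 2). Marchf8 encodes a ubiquitin ligase that lowers Cd86 and MHC class II at the surface and had 3 shared enriched sites, the strongest in coding sequence (53.2 in mouse 1 and 42.4 in mouse 2). The class II activator gene Ciita had 8, all in coding sequence (strongest 47.1 in mouse 1 and 40.4 in mouse 2). H2-DMb1 had called sites and none enriched in both.

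On the T cell side, 4 of 6 counter-receptor genes had no called site. Cd28 had 2 shared enriched sites (strongest 17.05 in mouse 1 and 19.3 in mouse 2), and Tnfrsf9, the receptor for Tnfsf9, had 1 called site in each mouse and none enriched in both.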

How the data were processed

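Each mouse has its own deposited table, with a row per called nucleotide. Per the file headers, the authors computed a fold (a ratio of read starts, taken here as IP over input) and a score for each site. Cutadapt 2.7, STAR 2.6.0c and UMI-tools 0.5.1 and the builds mm10 and hg38 come from the submitters' processing notes. Neither the site caller, nor the score's definition, nor library depth is given in the sources used here. Positions are the 1-based ends of the deposited intervals. All 43 member sites fell inside their gene by RefSeq coordinates of GRCm38.p6, the assembly behind mm10.

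Genes were matched by the gene column. Shared sites had the same nucleotide and strand in both mice, with the annotation of mouse 1. The members and lists were chosen with earlier results of these data known. In full are given each gene's 3 highest shared sites and its lowest, and of each list up to 3 genes with the highest strongest site and up to 2 without a shared enriched site. Other named sites, and Cd80 and Icosl, were chosen after their values were seen. Ratios were reduced with denominators of at most 200 and a tolerance of 1e-06. The matching of sites between mice was tried on simulated positions, spaced more widely than the closest real sites. The reduction of ratios was tried on a few set fractions. No sequence is printed, because no genome was used. Python 3.11.15, pandas 2.3.3, NumPy 2.4.6, SciPy 1.17.1 and Matplotlib 3.10.9 were used.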

Additional observations from a re-analysis of the deposited data

How the results depend on the processing

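Counts of shared enriched sites and of list genes, positions and strongest folds were recomputed under the alternatives, 96 values for 18 results. Of these, 90 stayed within 1.5 times a count or within the spread between mice. Some could not have moved, so the 90 do not measure robustness. Where the same site led in both mice (Cd83 and Cd86), its fold with a mouse left out stays within that spread by construction. Merging sites within 5 bases could not change the members' counts, since none of their shared enriched sites had another within 10 bases. At log2 fold 4, Cd40 kept 3 sites and Cd86 8, while Cd83 had 10 and Tnfsf9 9, beside 42.2% of all sites called in both mice. When the strongest site was chosen by score, the mean log2 fold for Cd83 was 5.76, against 7.77 when chosen by fold. At log2 fold 2, the counter-receptor list had 2 genes with a shared enriched site, against 1. With one mouse left out, the enriched sites numbered 10 in Tnfsf9, 12 in Cd83, 5 in Cd40 and 13 to 15 in Cd86, the leading log2 fold was 5.83 to 5.95 in Cd40, and the counter-receptor list had 1 to 2 genes. The larger values without mouse 2 are those of mouse 1 alone, where a site need not be shared. No paired analysis was possible because the results come from no test, and the deposited fold already sets the IP over the input of the same mouse. The DRACH motif alternatives were not run, since no genome sequence was used. Library depth is unknown here, so no interval could be formed for a fold, and what depth limits was not tested.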

Other observations

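Other genes listed for the contact of macrophages with T and NK cells, not all of them for membrane proteins, also carried sites. All 21 genes of that list had a called site in both mice and all 21 had a shared enriched one, beside 86.9% of all genes called in both mice. The list was written with earlier results of these data known, so its share is not a finding about such genes. Of their 100 sites, 47 lay in 3' UTRs and 33 in coding sequence, beside 37.3% and 42.4% over all shared enriched sites. The leading genes were Slamf8 and Slamf9, members of the SLAM receptor family, with strongest folds of 98.3 in mouse 1 and 317 in mouse 2 for Slamf8, and 81.9 in mouse 1 and 143 in mouse 2 for Slamf9. Icam1, the adhesion ligand of the integrin LFA-1, had 13 shared enriched sites with 81.1 in mouse 1 and 104 in mouse 2 at the strongest. At a score of at least 20, 19 of these 21 still had one.

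Among the markers, Spi1, Cd14 and Csf1r led the macrophage list, with strongest folds of 155 in mouse 1 and 161 in mouse 2 for Spi1, 147 and 123 for Cd14, and 97.3 and 126 for Csf1r, while Itgam had called sites and none enriched in both. Itgax (49.1 in mouse 1 and 61.6 in mouse 2), Batf3 (28.4 and 55.8) and Irf4 (24.1 and 27.0) were the dendritic cell markers with shared enriched sites, Cd79b (12.03 and 8.67) the B cell marker and Lck (38.6 and 79.9) the T cell marker. The part of other cells in the sites of the 4 costimulatory genes was not tested.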
